A study of Mus musculus with 6 samples.

Results

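The retinoid genes of gut stroma described here are the 9 genes Aldh1a1, Aldh1a2, Aldh1a3, Rbp4, Lrat, Rdh10, Cyp26b1, Dhrs3 and Stra6, picked by symbol from the 33697 genes counted, as genes of retinoid metabolism and with earlier results of these data known. They were followed across the cell classes of the 6 single-cell libraries of the series. Lamina propria of Flare-TSLP mice was the source, and its live tdTomato+ cells were sorted. These are C57BL/6 mice whose Tslp locus, coding for the alarmin cytokine TSLP, carries a tdTomato reporter cassette read from an internal ribosome entry site, so that reporter fluorescence marks cells in which the locus is active. All libraries share this genotype, and the labels name no treatment. They comprised 2 libraries of the proximal small intestine (labelled proximal jejunum), 2 of the distal small intestine (distal ileum), 1 of the cecum and 1 of the large intestine. Peyer's patches and epithelium were removed before the sort, and the sort was set to take no cells outside the reporter gate. T cell or ILC-like, B or plasma cell-like and myeloid-like cells were still among the cells counted. The paper removed clusters almost without tdTomato+ cells, and no such filter was applied here. The tdTomato transcript had 301 to 1081 UMIs per library over all barcodes, so no class here is shown to be reporter positive. Each library pooled cells under 3 hashtag antibodies that the labels do not assign to animals. Each library thus counts as 1 sample, and p-values measure only the spread between libraries. Between classes this is the spread over libraries of the difference within each library.

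Retinoic acid is made from vitamin A in steps. Retinol travels in blood bound to RBP4 and enters some cells through the receptor STRA6, is stored as retinyl ester by LRAT, is oxidised to retinal by RDH10 and reduced back from retinal by DHRS3, and retinal is oxidised irreversibly to retinoic acid by the retinal dehydrogenases ALDH1A1, ALDH1A2 and ALDH1A3, while CYP26B1 degrades retinoic acid. Retinoic acid binds nuclear receptors of the RAR and RXR families, and in the gut it is known for imprinting lymphocytes with gut-homing receptors and for acting on innate lymphoid cells. Cyp26b1 and Dhrs3 are themselves known to be induced by retinoic acid in many cell types.

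The libraries held 109675337 to 206827504 UMIs on genes, that is, unique molecules counted by their molecular identifier. After filters on genes, UMIs and mitochondrial content and removal of predicted doublets, 93912 cells were left, with medians of 6602 to 9234 UMIs per cell and library. Each cell was assigned to a class by its score on lists of marker genes, none of them a retinoid gene, and 71990 cells were fibroblast-like, of which 55.22% received a subclass. Frmd5, of the subepithelial fibroblast list, leads a graph cluster in which Lrat is also a leading gene. Sox6, of the telocyte list, likewise leads a graph cluster with Rbp4 among its leading genes. The subepithelial fibroblast-like class and its Lrat level, and the telocyte-like class and its Rbp4 level, are therefore not independent. Such classes are ranges of a score, not types: 1797 cells lay near the lineage threshold and 10687 near the subclass threshold. Prox1, the lymphatic transcription factor, ran from 946 to 1211 CPM in the lymphatic endothelial (LEC)-like cells of the 6 libraries and from 1.18 to 8.99 CPM in fibroblast-like cells. Grem1 ran from 622 to 2137 CPM in trophocyte-like cells, the crypt-associated fibroblasts, and from 3.85 to 17.2 CPM in subepithelial fibroblast-like cells. Prox1 and Grem1 are on the marker lists of their classes, so these levels follow from the assignment. Lgr5, 1 of the markers of the telocyte-like class, marks villus tip telocytes in the paper. It was at 163 to 849 CPM in the telocyte-like cells of the small intestine but at 30.7 and 16.3 CPM in those of the cecum and large intestine. Levels of the other markers of this class are not given here. Hashtags HT0301 to HT0303 were used in proximal 1, distal 1, the cecum and the large intestine and HT0304 to HT0306 in proximal 2 and distal 2, and library pairs shared 36 to 102 cell barcodes. Levels below are UMIs of a gene per 1000000 UMIs (CPM) summed over the cells of a class in a library, in the order proximal 1, proximal 2, distal 1, distal 2, cecum, large intestine. The assay counts the 3′ ends of transcripts, so a level does not scale with gene length. Free RNA is given as the CPM of a gene over the barcodes with at most 100 UMIs of the library, which hold no cell.

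**Figure D1:**
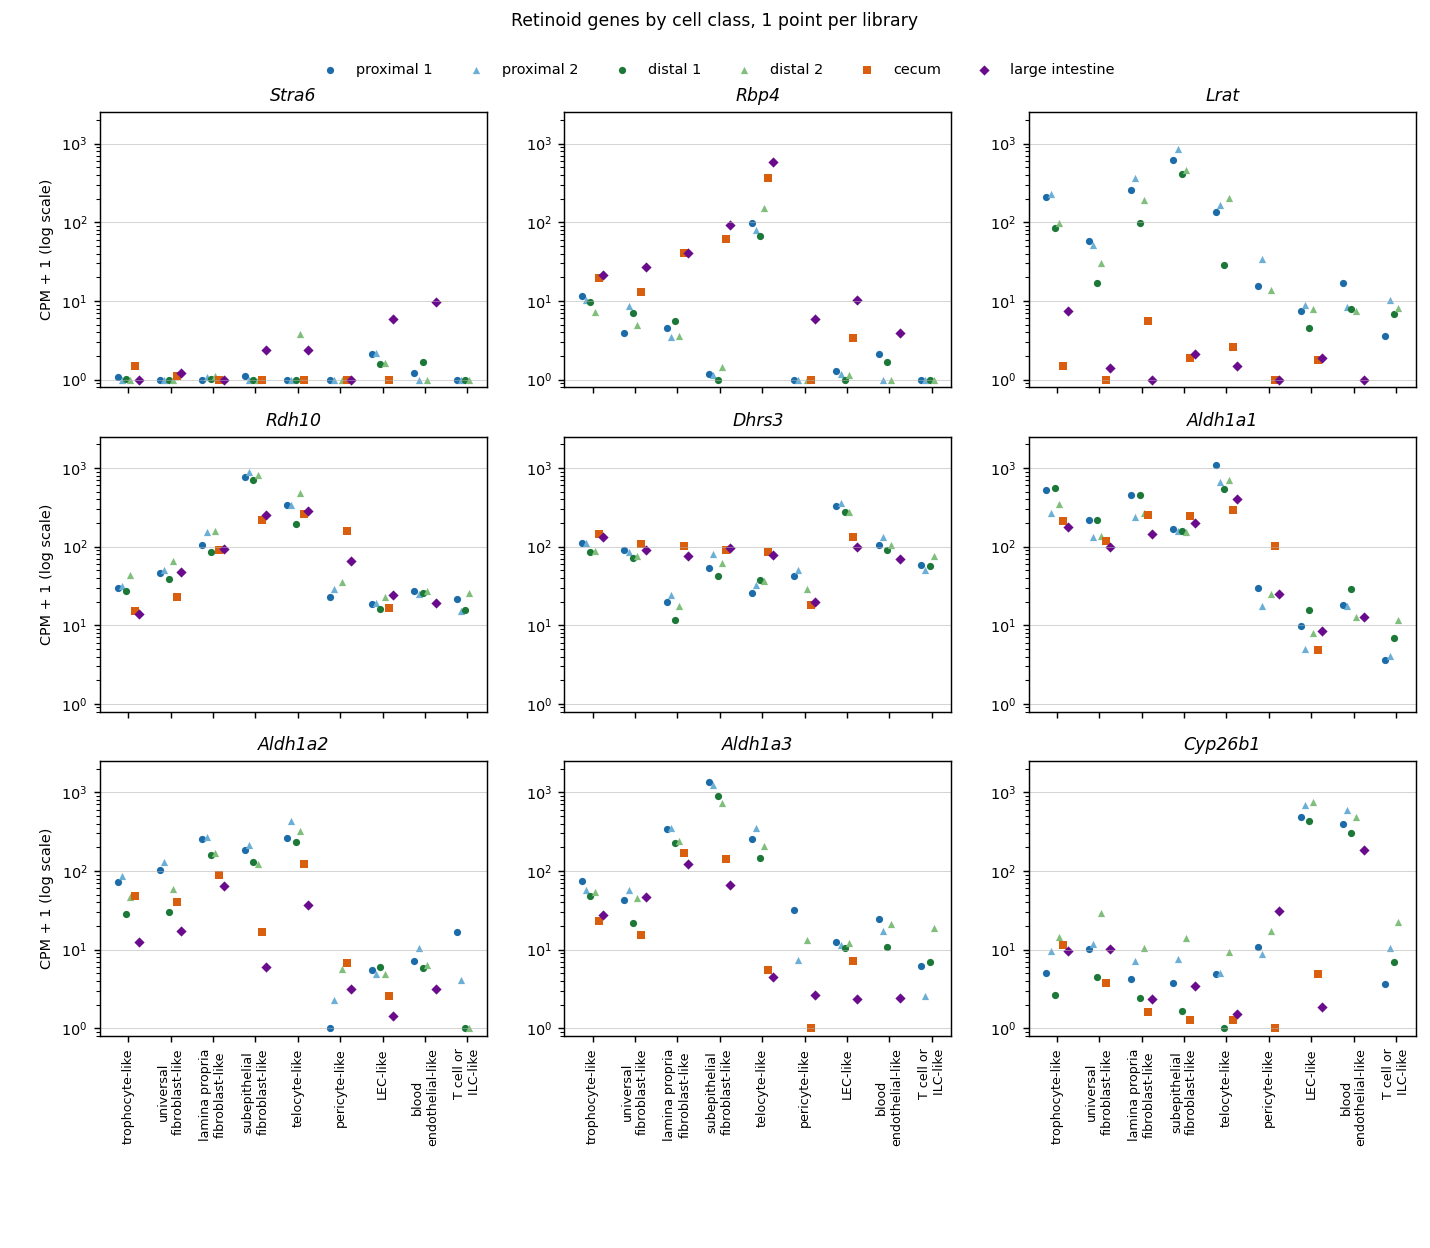
Levels of the 9 retinoid genes in 9 cell classes, as CPM + 1 on a log axis, with 1 point per library that held at least 20 cells of the class. In the small intestine Aldh1a3, Rdh10 and Lrat peak in the subepithelial fibroblast-like class. In the cecum and large intestine they do not, and Rdh10 is higher in telocyte-like cells there. Cyp26b1 peaks in LEC-like and blood endothelial-like cells, with the LEC-like points of the cecum and large intestine at 3.88 and 0.886 CPM.

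Stra6, the cell-surface receptor for retinol bound to RBP4, was close to absent from this sort. In fibroblast-like cells it ran from 0.0353 to 0.737 CPM, in LEC-like cells from 0 to 4.87 CPM, and 105 Stra6 UMIs were counted in all LEC-like cells together. The single high value, 445 CPM in the blood endothelial-like cells of the cecum, came from 15 cells, of which 6.67%, that is 1 cell, held the gene. Gm16131 overlaps Stra6 on the same strand, so the count is uncertain. Its counts were too low for a test in 7 of the 10 comparisons between classes or regions. Stra6 lies at chr9:57970967-58063543 on the plus strand of GRCm39.

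Rbp4, the plasma carrier of retinol (chr19:38105066-38113754, minus strand), was a gene of telocyte-like cells, the subepithelial cells that include the villus tip telocytes. Its level in telocyte-like cells was 97.4, 79.6, 66.5, 152, 368 and 580 CPM. In subepithelial fibroblast-like cells it was 0.193, 0.14, 0, 0.442, 59.4 and 90.2 CPM, so that the 4 small intestinal libraries, with 10 UMIs in all, did not overlap with the large bowel libraries. In trophocyte-like cells the level stayed between 6.30 and 20.3 CPM. The highest level outside the telocyte-like class was in myofibroblast-like or smooth muscle-like cells of the cecum and large intestine, at 324 and 577 CPM, against 0 to 10.8 CPM in those of the small intestine. LEC-like cells had 0 to 9.30 CPM. The gene overlaps Ffar4 on the opposite strand.

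Lrat, which esterifies retinol for storage (chr3:82799886-82811288, minus strand), was a gene of small intestinal fibroblasts. In subepithelial fibroblast-like cells its level was 614, 865, 412, 458, 0.894 and 1.13 CPM, and the values for the cecum and large intestine stand for 10 and 5 UMIs. Levels were also lower in the large bowel in trophocyte-like cells, at 206, 225, 83.3, 97.2, 0.495 and 6.53 CPM, and in lamina propria fibroblast-like cells, at 257, 365, 95.8, 189, 4.57 and 0 CPM, although the cells of each of these classes lay mostly in other graph clusters there than in the small intestine. LEC-like cells had 3.56 to 7.94 CPM in the small intestine, which was 3.02 to 4.61% of the free RNA level of Lrat there. A UMI of Lrat was found in 85.3 to 97.2% of small intestinal subepithelial fibroblast-like cells (median depth 7413 to 10135 UMIs), in 0.516% and 0.95% of those of the cecum and large intestine (medians 7721 and 9874), and in 1.41 to 4.90% of the T cell or ILC-like cells of the small intestine (medians 4483 to 5299), which should lack the gene. Free RNA itself held little Lrat in the cecum and large intestine, 1.23 and 0.806 CPM against 91.5 to 263 CPM in the small intestine. Subepithelial fibroblast-like cells of the cecum and large intestine stood at 72.6 and 140% of free RNA, on 10 and 5 UMIs. Small intestinal LEC-like cells stood at 3.02 to 4.61%, as above. The part of free RNA in these few large bowel UMIs was not tested. Rbm46os overlaps Lrat on the opposite strand.

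Rdh10, the retinol dehydrogenase of the first oxidation step (chr1:16175555-16203958, plus strand), was highest in the same small intestinal fibroblast class as Lrat and stayed measurable in the large bowel. Its level in subepithelial fibroblast-like cells was 756, 887, 694, 822, 218 and 250 CPM, higher in each small intestinal library than in both large bowel libraries. Telocyte-like cells had 338, 332, 192, 479, 256 and 284 CPM, where the regions overlapped. Trophocyte-like cells had 26.5 to 42.4 CPM in the small intestine and 14.4 and 13.1 CPM in the cecum and large intestine. LEC-like cells were at 15.0 to 23.5 CPM in all 6 libraries, 10.8 to 18.4% of free RNA.

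Dhrs3, which reduces retinal back to retinol (chr4:144619245-144654779, plus strand), was highest in LEC-like cells in the small intestine, at 323, 352, 278, 277, 133 and 98.3 CPM. Fibroblast-like cells as a whole had 57.7, 59.4, 40.9, 41.0, 99.99 and 82.9 CPM, so the large bowel libraries were the lowest in LEC-like cells and the highest in fibroblast-like cells. Among fibroblast subclasses of the small intestine, the trophocyte-like class had the highest mean, 98.0 ± 13.5 CPM (SD, n = 4), and the lamina propria fibroblast-like class the lowest, 17.2 ± 5.31 CPM. These ranges do not overlap. Glia-like cells, counted in 3 libraries, reached 191 ± 21.2 CPM.

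Cyp26b1, which breaks retinoic acid down (chr6:84548396-84570890, minus strand), was highest in the endothelial classes. In LEC-like cells its level was 477, 680, 430, 744, 3.88 and 0.886 CPM, with 5 and 2 UMIs in the cecum and large intestine. In blood endothelial-like cells it was 395, 599, 305 and 484 CPM in the small intestine and 185 CPM in the large intestine, and the 15 such cells of the cecum gave 346 CPM. In the large intestine the level in blood endothelial-like cells was thus above that in LEC-like cells, which was 14.2% of free RNA. Pericyte-like cells there held 30.0 CPM on 55 UMIs, 481% of free RNA, against 0 to 16.1 CPM in the other libraries. A Cyp26b1 UMI was found in 74.2 to 85.5% of small intestinal LEC-like cells (median depth 5525 to 6754 UMIs) and in 1.41 to 10.3% of T cell or ILC-like cells there (medians 4483 to 5299). Fibroblast-like cells of the small intestine had 1.76 to 14.0 CPM, which was 4.57 to 6.81% of the free RNA level, so expression there and free RNA cannot be told apart.

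Since Cyp26b1 and Dhrs3 both stood highest in LEC-like cells in the small intestine and lower there in the large bowel, the 250 bases before a transcription start of each are shown, from RefSeq on the build GRCm38.p6 (other coordinates in this text are GRCm39 and are not to be mixed with these), 5′ to 3′ on the gene's strand. They lie at chr6:84593811-84594060 on the minus strand and chr4:144892577-144892826 on the plus strand.
Cyp26b1: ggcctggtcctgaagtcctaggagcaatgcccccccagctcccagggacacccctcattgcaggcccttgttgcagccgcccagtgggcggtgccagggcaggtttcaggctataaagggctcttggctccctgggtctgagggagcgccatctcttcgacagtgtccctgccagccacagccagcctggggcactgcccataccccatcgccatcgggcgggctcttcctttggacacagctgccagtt
Dhrs3: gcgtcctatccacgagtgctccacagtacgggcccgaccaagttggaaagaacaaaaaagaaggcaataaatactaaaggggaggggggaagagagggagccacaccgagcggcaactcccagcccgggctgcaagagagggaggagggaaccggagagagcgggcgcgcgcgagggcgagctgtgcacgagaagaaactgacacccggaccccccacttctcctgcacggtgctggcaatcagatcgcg
Half-sites of the retinoic acid response element were searched for on both strands. The hexamer AGGTCA is held by 14.02% of 32851 promoters of the same length, the hexamer AGTTCA by 11.84%, the hexamer GGTTCA by 8.85% and the hexamer GGGTCA by 11.65%, and 38.64% hold at least 1 of them. Neither window shown holds one, so no letters are in capitals. The other Dhrs3 starts and the listed starts of Lrat, Aldh1a2 and Stra6 held none either, and GGGTCA was found on the minus strand of 1 Rbp4 and 1 Aldh1a1 start. Promoters matched for 7 of the 9 genes, and those of Aldh1a3 and Rdh10 were not used here.

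The retinal dehydrogenases differed in level between the fibroblast subclasses. Aldh1a1 (chr19:20469539-20622825, plus strand) was at 1079, 657, 534, 698, 287 and 396 CPM in telocyte-like cells and at 520, 270, 548, 347, 208 and 178 CPM in trophocyte-like cells. These were the 2 fibroblast subclasses with the highest levels in the small intestine, while in the cecum and large intestine trophocyte-like cells lay below subepithelial fibroblast-like cells. In subepithelial fibroblast-like cells it was nearly the same in the 4 small intestinal libraries, at 166, 157, 158 and 154 CPM, and higher in the cecum and large intestine, at 245 and 197 CPM. In the fibroblast-like cells of the small intestine as a whole it ran with the hashtag set rather than with the region, at 441 and 455 CPM in proximal 1 and distal 1 and at 228 and 253 CPM in proximal 2 and distal 2. The cecum and large intestine, which carry the hashtags of proximal 1 and distal 1, were the lowest, at 203 and 217 CPM. Its near-identical paralog Aldh1a7 was at or near 0 in each class.

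Aldh1a2, the dehydrogenase that makes retinoic acid in the early embryo (chr9:71122630-71203527, plus strand), was at 258, 434, 234, 321, 120 and 36.0 CPM in telocyte-like cells, the fibroblast subclass with its highest small intestinal mean. Its level in subepithelial fibroblast-like cells was 182, 210, 128 and 121 CPM in the small intestine and 15.6 and 4.97 CPM in the cecum and large intestine, without overlap. Aldh1a3 (chr7:66040638-66077850, minus strand) had the highest class mean of the 9 genes in the small intestine, at 1338, 1230, 885 and 736 CPM in subepithelial fibroblast-like cells, against 141 and 64.6 CPM in the cecum and large intestine. In telocyte-like cells it was 256, 354, 147 and 208 CPM in the small intestine and 4.51 and 3.45 CPM in the large bowel libraries. In trophocyte-like cells it never passed 72.6 CPM.

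Expressed as shares of the summed Aldh1a1, Aldh1a2 and Aldh1a3 UMIs, Aldh1a3 made up 76.2 ± 2.75% (SD, n = 4 small intestinal libraries) in subepithelial fibroblast-like cells and 11.1 ± 2.57% in trophocyte-like cells. Aldh1a1 made up 77.4 ± 9.20% in trophocyte-like cells and 57.1 ± 9.14% in telocyte-like cells. Small intestinal lamina propria fibroblast-like cells held all of them, with means of 41.2% Aldh1a1, 24.7% Aldh1a2 and 34.1% Aldh1a3. In universal fibroblast-like cells the means were 60.1, 26.0 and 13.9%. Aldh1a2 had the largest share in no subclass. In the subepithelial fibroblast-like cells of the cecum and large intestine the order was turned, with Aldh1a1 at 61.0 and 73.9% and Aldh1a3 at 35.1 and 24.3%. In telocyte-like cells there, Aldh1a3 made up 1.09 and 0.792%.

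**Figure D2:**
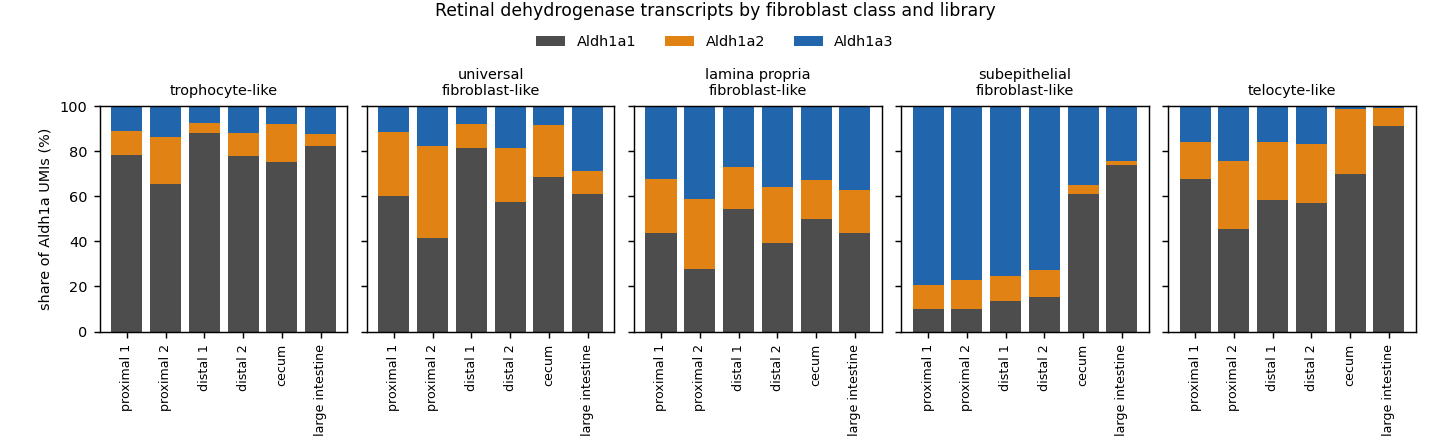
Share of Aldh1a1, Aldh1a2 and Aldh1a3 in their summed UMIs, in percent, with 1 stacked bar per library and 1 panel per fibroblast class. Aldh1a3 takes 72.8 to 79.4% of the bar in the subepithelial fibroblast-like cells of the 4 small intestinal libraries and at most 35.1% elsewhere in the 5 panels except the lamina propria fibroblast-like class, where it reaches 41.1%.

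The first comparison asked which retinoid genes separate the lymphatic from the fibroblast cells of the sort. All 9 members differed between LEC-like and fibroblast-like cells of the 6 libraries by edgeR's quasi-likelihood test with library as a block, at an adjusted p under 0.05, where 67.7% of the 17890 genes tested did so, so the count itself says little about the members. 3 members were higher in LEC-like cells (31.7% of all genes) and 6 were lower (36.0%). Cyp26b1 was higher by 5.30 ± 1.36 on the log2 scale (SE, adjusted p = 0.00824), in 5 of 6 libraries, the large intestine being the exception. Its difference ran from 4.61 (without distal 1) to 5.97 (without the large intestine) with a library left out. In the cecum and large intestine fibroblast-like cells held 3.86 ± 0.56 CPM of Cyp26b1, and the LEC-like levels there rest on the few UMIs given above. The cecum thus adds almost nothing, and the difference comes from the small intestinal libraries. Dhrs3 was higher by 1.95 ± 0.43 (adjusted p = 0.00395), in 6 of 6 libraries. Stra6 was higher by 2.79 ± 0.42 at levels of 1.39 ± 1.76 against 0.231 ± 0.26 CPM. Each SE of a log2 difference, here and below, is derived from the F statistic of its test.

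The dehydrogenases were lower in LEC-like cells, Aldh1a1 at 7.66 ± 3.95 against 300 ± 116 CPM with a log2 difference of -5.32 ± 0.15 (adjusted p = 3.8e-08). Aldh1a2 differed by -5.07 ± 0.16 and Aldh1a3 by -4.73 ± 0.18. Lrat, Rbp4 and Rdh10 differed by -5.12 ± 0.35, -4.63 ± 0.17 and -3.14 ± 0.16, and Lrat was lower in 5 of 6 libraries, not in the large intestine. In LEC-like cells the 3 dehydrogenases stood at 1.55 to 6.18% of their free RNA level, so the size of these differences depends on how such reads are treated. With predicted doublets kept the differences of Aldh1a1, Aldh1a2 and Aldh1a3 were -4.47, -3.98 and -3.33, and with 10% of each sum subtracted as free RNA, which leaves the LEC-like cells none of these UMIs, they were -16.97, -16.09 and -17.14. The same subtraction took Lrat, Rbp4 and Rdh10 to -12.80, -12.12 and -5.13 and Cyp26b1 to 12.10. All 9 calls and directions held in each alternative run. The fibroblast markers together summed to 528 to 1374 CPM in LEC-like cells, against 16770 to 24964 CPM in fibroblast-like cells, and their part in these values was not tested.

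Pericyte-like cells, the mural cells of small vessels, were compared with fibroblast-like cells in the 5 libraries with at least 20 of them, since distal 1 held 18. In this comparison 35.8% of 16650 genes were called, 14.0% higher and 21.8% lower. 7 of the 8 members tested were called, and all 7 were lower in pericyte-like cells. The Lrat call was lost without the library block (log2 difference -3.97, adjusted p = 0.0729) and the Dhrs3 call with graph clusters (-0.38, adjusted p = 0.19). The largest differences were those of Rbp4 (-5.66 ± 0.34), Aldh1a2 (-5.11 ± 0.38) and Aldh1a3 (-4.77 ± 0.31), which over the alternatives ran from -14.87 to -4.08, from -15.15 to -3.65 and from -16.22 to -3.53, the lowest values being those after free RNA subtraction. Without the large intestine the Rbp4 difference was -11.88. Aldh1a1 was at 39.2 ± 35.5 against 268 ± 98.3 CPM (n = 5), and Lrat and Dhrs3 differed by -3.95 ± 0.20 and -1.18 ± 0.31. Over the alternatives Aldh1a1 ran from -4.46 to -2.79 and Lrat from -7.28 to -3.12. Rdh10 was lower in 4 of 5 libraries (-1.90 ± 0.45, adjusted p = 0.00625), and in the cecum it was higher in pericyte-like cells, at 159 against 89.1 CPM and at 189% of free RNA. Without the cecum the difference was -2.48. Stra6 had 0 UMIs in pericyte-like cells and was not tested. Cyp26b1 was at 12.7 ± 11.3 against 7.10 ± 4.31 CPM, with no call (log2 difference 0.90 ± 0.50, adjusted p = 0.18). Leaving out the large intestine brought this difference to -0.0047.

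**Figure D3:**
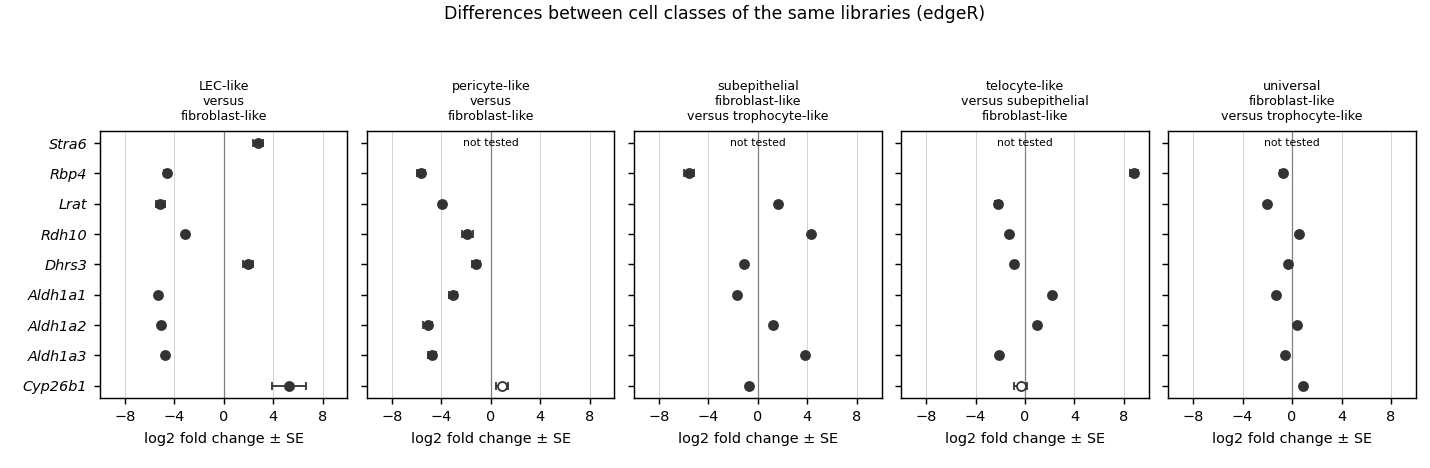
Log2 fold change, with a standard error derived from the F statistic, for each member between cell classes of the same libraries, by edgeR. There is 1 panel per comparison. Filled points had an adjusted p under 0.05 and open points did not. Cyp26b1, Dhrs3 and Stra6 lie to the right and the 3 dehydrogenases, Lrat, Rbp4 and Rdh10 to the left in the LEC-like panel, while Rbp4 changes side between the subepithelial fibroblast-like and the telocyte-like panels.

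Subepithelial fibroblast-like and trophocyte-like cells of the 4 small intestinal libraries divided the retinoid genes between them. All 8 members tested were called, where 65.5% of 14998 genes were, with 4 members higher (30.6% of all genes) and 4 lower (34.9%) in subepithelial fibroblast-like cells. Rdh10 was higher by 4.29 ± 0.10 on the log2 scale, at 790 ± 83.3 against 32.1 ± 7.15 CPM (adjusted p = 5.92e-07). Aldh1a3 was higher by 3.82 ± 0.11, at 1048 ± 284 against 57.6 ± 10.7 CPM (adjusted p = 1.05e-06). Lrat was higher by 1.66 ± 0.13 and Aldh1a2 by 1.21 ± 0.16, each in 4 of 4 libraries. In the opposite direction, Aldh1a1 was lower, with a log2 difference of -1.70 ± 0.17, at 159 ± 4.84 against 421 ± 134 CPM, and Dhrs3 by -1.11 ± 0.12. Rbp4 was lower, with a log2 difference of -5.57 ± 0.37, on 10 UMIs against 950, and ran from -6.50 (without distal 2) to -5.27 with a library left out and from -7.66 to -4.18 over all alternatives. The largest Aldh1a3 and Rdh10 differences, after free RNA subtraction, were 4.60 and 5.09. The Cyp26b1 difference of -0.71 ± 0.17 lies between levels of 5.74 and 6.94 CPM, ran from -1.58 to -0.48 over the alternatives and lost its call without the library block (adjusted p = 0.60).

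Telocyte-like cells of the small intestine, 238 in all, were set apart from subepithelial fibroblast-like cells most by Rbp4. 7 of the 8 members tested were called, where 21.8% of 12146 genes were, 3 of them higher (11.2% of all genes) and 4 lower (10.6%) in telocyte-like cells. Rbp4 was higher by 8.79 ± 0.32 on the log2 scale (adjusted p = 1.31e-10), on 199 against 10 UMIs, with 7.35 to 10.67 over the alternatives. This SE is derived from the test statistic and can be too small at such counts. Aldh1a1 was higher by 2.21 ± 0.15, at 742 ± 235 against 159 ± 4.84 CPM, and Aldh1a2 by 0.98 ± 0.14, both in 4 of 4 libraries. Aldh1a3 and Lrat were lower, with log2 differences of -2.11 ± 0.15 and -2.19 ± 0.25, Rdh10 by -1.25 ± 0.15 and Dhrs3 by -0.85 ± 0.20. Under a stricter gate the Aldh1a3 and Lrat differences were -2.96 and -3.13. Cyp26b1 was not called (-0.33 ± 0.53, on 8 against 303 UMIs), and its difference was 0.042 with limma-voom and 1.65 with graph clusters. The Aldh1a2 call was lost under a stricter gate (adjusted p = 0.0708). The Dhrs3 call was lost without proximal 1 (adjusted p = 0.0511), without proximal 2 (0.0503) and under the stricter gate (0.18). Over the alternatives the Dhrs3 difference ran from -1.11 to -0.55.

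Universal fibroblast-like cells, marked by Pi16 and Dpp4, were compared with trophocyte-like cells. The classes are not well apart, since the cells of the first had a median score of 0.549 on the trophocyte markers and 0.501 on their own, and graph clusters 17 and 10, which hold most small intestinal trophocyte-like cells, held 42.3 and 25.6% of them in the small intestine. Pi16 ran from 250.1 to 395 CPM in them and from 6.39 to 20.4 CPM in trophocyte-like cells there. 8 of 8 members were called, where 31.0% of 13558 genes were, 3 of them higher (15.9% of all genes) and 5 lower (15.1%). The largest differences were those of Lrat, at 38.1 ± 19.0 against 153 ± 72.9 CPM (log2 difference -2.04 ± 0.10, and -3.01 to -1.85 over the alternatives), and of Aldh1a1, at 175 ± 47.3 against 421 ± 134 CPM (-1.27 ± 0.07). Rdh10 was higher by 0.60 ± 0.08 and Aldh1a2 by 0.38 ± 0.08. Cyp26b1 was higher by 0.87 ± 0.18, at 12.8 ± 10.5 against 6.94 ± 5.29 CPM, and Dhrs3 was lower, with a log2 difference of -0.30 ± 0.06. The Cyp26b1 difference fell to 0.18 with predicted doublets kept, without its call (adjusted p = 0.34), and in each of the 4 libraries its level in both classes was below that of free RNA. With graph clusters the Aldh1a2 and Dhrs3 calls were lost (adjusted p = 0.12 and 0.0573). Without the library block 3 of the 8 calls were left. Aldh1a3 and Rbp4 changed direction when classes were taken from graph clusters, from -0.57 to 0.83 and from -0.74 to 1.23, so no direction can be given for them.

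Along the small intestine, few members and few genes differed between distal and proximal libraries in the main fit, which has no replicate block. With the replicate number as a block, 595 genes were called in trophocyte-like, 271 in subepithelial fibroblast-like and 207 in LEC-like cells. In trophocyte-like cells 0.118% of 16162 genes were called and 1 of 8 members, Lrat, was among them. Its level was 206 and 225 CPM in the proximal and 83.3 and 97.2 CPM in the distal libraries, without overlap, and the log2 difference of distal to proximal was -1.26 ± 0.15 (adjusted p = 0.0494). Over the alternatives the Lrat difference ran from -1.32 to -1.16. Proximal exceeded distal within each hashtag set. The call was lost with predicted doublets kept (adjusted p = 0.095), without proximal 1 (0.0782) or without proximal 2 (0.0668), over alternatives that ran from 3.28e-09 to 0.095. Aldh1a2 was at 78.8 ± 9.42 and 36.3 ± 13.0 CPM (n = 2 each), with a log2 difference of -1.14 ± 0.22 and an adjusted p of 0.15, so it was not called. With the replicate number as a block, which pairs the libraries that share a hashtag set, it was called (-1.17, adjusted p = 1.2e-09), as it was with DESeq2 (0.000374), without the filter on low counts (2.21e-08) and without distal 2 (-1.49, adjusted p = 0.0336), and over all alternatives the adjusted p ran from 1.2e-09 to 0.18. The other members tested were not called either, with log2 differences of 0.18 ± 0.36 for Aldh1a1, -0.36 ± 0.17 for Aldh1a3, -0.37 ± 0.22 for Rbp4, 0.19 ± 0.20 for Rdh10, 0.15 ± 0.80 for Cyp26b1 and -0.35 ± 0.14 for Dhrs3.

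In subepithelial fibroblast-like cells 0.00687% of 14561 genes, that is 1 gene, and 0 of 7 members were called by edgeR, and DESeq2 called 0 members as well. Lrat, Aldh1a2 and Aldh1a3 had an unadjusted p under 0.05, as did 473 of all genes, and none of them was called. Their log2 differences were -0.73 ± 0.24, -0.62 ± 0.17 and -0.63 ± 0.24. Aldh1a1, Rdh10, Cyp26b1 and Dhrs3 differed by -0.017 ± 0.16, -0.088 ± 0.23, 0.64 ± 0.91 and -0.35 ± 0.24. The difference between the regional effects of subepithelial fibroblast-like and trophocyte-like cells was 0.55 ± 0.15 for Lrat and was not called (edgeR, adjusted p = 0.48). In LEC-like cells 0% of 15551 genes and 0 of 8 members were called by edgeR. There 597 genes and 0 members had an unadjusted p under 0.05, limma-voom called 0 genes, and DESeq2 called 33 genes and 0 members. Cyp26b1 was at 578 ± 144 CPM proximally and 587 ± 223 CPM distally, a log2 difference of -0.0019 ± 0.29. Dhrs3 was at 337 ± 21.1 and 277 ± 0.127 CPM. Aldh1a1, Aldh1a2, Aldh1a3, Lrat, Rdh10 and Stra6 differed by 0.66 ± 0.45, 0.020 ± 0.25, -0.071 ± 0.17, -0.36 ± 0.29, 0.071 ± 0.18 and -0.91 ± 0.40. The one member called there under an alternative was Aldh1a1, higher distally by 0.74 with the replicate block (adjusted p = 0.0434) and by 1.30 without proximal 1 (0.02), at levels that are a few percent of free RNA.

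**Figure D4:**
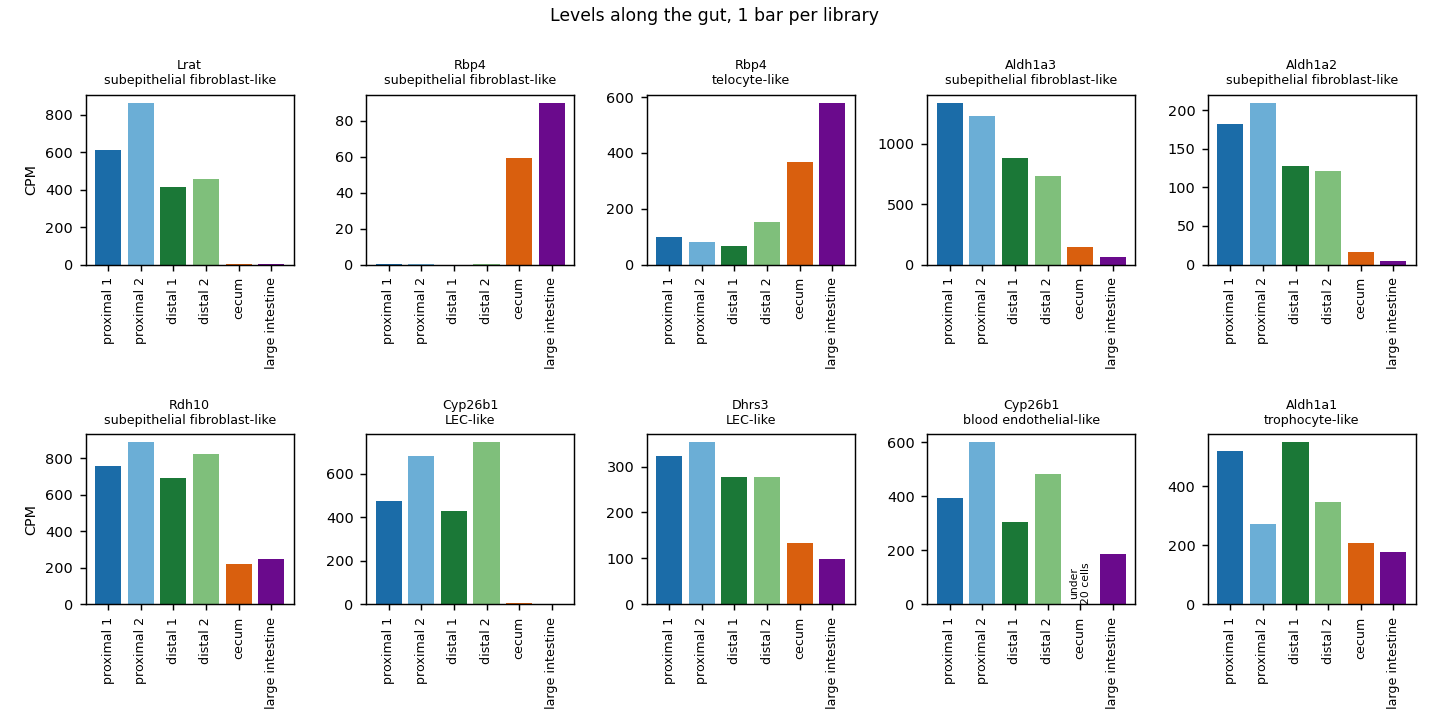
Levels in CPM along the gut for 10 pairs of a retinoid gene and a cell class, with 1 bar per library. Lrat in subepithelial fibroblast-like cells and Cyp26b1 in LEC-like cells are within 4 CPM of 0 in the cecum and large intestine, Rbp4 is higher there, and Aldh1a1 in trophocyte-like cells is highest in proximal 1 and distal 1, which share a hashtag set.

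Between large bowel and small intestine the fibroblasts differed in Lrat, Rbp4, Aldh1a2, Aldh1a3 and Dhrs3. The cecum and the large intestine, 1 library each, formed 1 group against the 4 small intestinal libraries, so a difference between them cannot be tested. In fibroblast-like cells 30.7% of 19789 genes were called, 16.1% higher and 14.5% lower in the large bowel, and 5 of 9 members were, 2 higher and 3 lower. Lrat was at 0.965 ± 0.60 CPM in the large bowel (n = 2) and 248 ± 130 CPM in the small intestine (n = 4), a log2 difference of -7.93 ± 0.82 (adjusted p = 0.00163). Rbp4 was at 45.3 and 211 CPM against 3.59 to 6.68 CPM, higher by 4.60 ± 0.54 (adjusted p = 0.00242), with 3.18 without the large intestine and 5.32 without the cecum. The Lrat difference was -8.81 without the cecum. Telocyte-like cells, the subclass highest in Rbp4, numbered 534 of the 12449 fibroblast-like cells of the cecum and 2866 of the 10059 of the large intestine, but 41 to 102 of 9834 to 17718 in each small intestinal library, so that the make-up of the class and levels within its cells cannot be told apart here. Aldh1a3 and Aldh1a2 were lower, with log2 differences of -1.99 ± 0.31 and -1.83 ± 0.34, and Dhrs3 was higher by 0.93 ± 0.19. Aldh1a1 was at 210 ± 9.51 against 344 ± 121 CPM and was not called (-0.68 ± 0.35, adjusted p = 0.17). Rdh10, Cyp26b1 and Stra6 were not called, with log2 differences of -0.49 ± 0.39, -0.86 ± 0.66 and 1.93 ± 0.79.

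Both large bowel libraries carry the hashtag set of proximal 1 and distal 1. Against those 2 libraries alone, the Lrat, Rbp4, Aldh1a2 and Aldh1a3 calls were retained, at log2 differences of -7.54, 4.27, -1.74 and -1.85, and Aldh1a1 was called as well, at -1.10 (adjusted p = 0.0298, between 0.0298 and 0.36 over the alternatives). Dhrs3 kept its difference, 0.89, without its call (adjusted p = 0.0598), and lost it also without the cecum (0.0642). Its other alternatives gave 0.000385 to 0.0267.

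Within the subepithelial fibroblast-like class, 41.7% of 14907 genes were called, 22.6% higher and 19.2% lower, and 7 of 8 members were, 3 higher and 4 lower in the large bowel. Lrat was lower, with a log2 difference of -9.03 ± 0.50 (adjusted p = 4.57e-05) and Rbp4 higher by 8.49 ± 0.36 (adjusted p = 2.13e-05). Aldh1a2 was lower, with a log2 difference of -3.66 ± 0.44, Aldh1a3 by -3.15 ± 0.41 and Rdh10 by -1.56 ± 0.17. Without the cecum the Aldh1a2 and Aldh1a3 differences were -4.82 and -3.83, without the large intestine -3.17 and -2.70, and over the alternatives Rbp4 ran from 7.21 to 10.29, with 9.21 without distal 2, and Lrat from -9.72 to -8.80. Aldh1a1 was higher by 0.67 ± 0.13, at 221 ± 34.1 against 159 ± 4.84 CPM, and Dhrs3 by 0.85 ± 0.22. Without the cecum, Aldh1a1 and Dhrs3 lost their calls (adjusted p = 0.0526 and 0.0628, over alternatives from 0.000123 to 0.0556 and from 0.00388 to 0.0628), and Dhrs3 did so without the large intestine too (0.0621). Cyp26b1 was not called (-2.27 ± 1.21, adjusted p = 0.17).

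The cells behind this comparison are not the same in both regions. Graph clusters 7 and 19 held 62.4 and 35.2% of the small intestinal subepithelial fibroblast-like cells, while cluster 14 held 95.9% of those of the cecum and 78.9% of those of the large intestine. A difference between regions and a difference between kinds of cell therefore cannot be told apart. Cluster 15, in which Rbp4 is a leading gene, held a further 19.7% of those of the large intestine. Their part in the Rbp4 level of the class there was not tested. Telocyte-like cells likewise lay in cluster 22 in the small intestine (95.4%) and in cluster 15 in the cecum (97.0%) and large intestine (96.5%). Trophocyte-like cells lay in clusters 10 and 17 in the small intestine (46.3 and 39.8%), in clusters 4 and 3 in the cecum (62.1 and 31.5%) and in clusters 3, 4 and 10 in the large intestine (36.2, 33.6 and 22.2%). Universal fibroblast-like cells lay in clusters 4 and 3 in the cecum (86.8 and 12.7%) and 3 and 4 in the large intestine (56.0 and 31.1%). Lamina propria fibroblast-like cells lay in clusters 11, 13 and 12 in the small intestine (45.1, 25.8 and 18.2%) and in cluster 14 in the cecum (91.8%) and large intestine (95%). LEC-like cells lay mostly in clusters 0 and 1 in each region, but in different shares. These were 54.4 and 44.8% in the small intestine, 58.7 and 40.4% in the cecum and 26.15 and 72.7% in the large intestine.

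**Figure D5:**
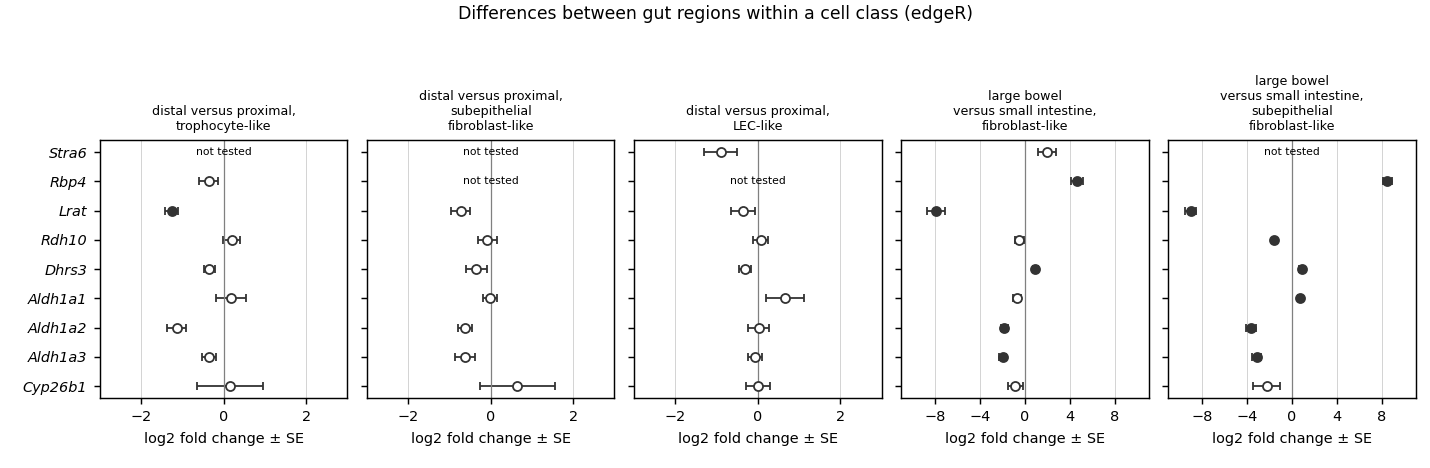
Log2 fold change, with a standard error derived from the F statistic, for each member between gut regions within a cell class, by edgeR. Filled points had an adjusted p under 0.05. The distal versus proximal panels hold 1 filled point, Lrat in trophocyte-like cells, and the large bowel panels, drawn on a wider axis, hold 5 and 7.

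How the regional difference itself varied with the cell class was tested as an interaction in edgeR, for contrasts chosen after the levels were seen. The large bowel effect on Cyp26b1 was lower in LEC-like than in fibroblast-like cells by -7.65 ± 0.82 on the log2 scale (adjusted p = 0.00117), and that on Dhrs3 by -2.43 ± 0.12 (adjusted p = 9.32e-05). For Cyp26b1, the fibroblast-like levels in the small intestine cannot be told from free RNA. Its LEC-like levels in the cecum and large intestine rest on few UMIs. Against blood endothelial-like cells, in the large intestine alone and over 5 libraries, the effect on Cyp26b1 in LEC-like cells was lower, with a log2 difference of -8.14 ± 0.41 (adjusted p = 2.16e-05) and that on Dhrs3 by -1.06 ± 0.19 (adjusted p = 0.0234). The large intestine is 1 library here, so these errors and p-values come from the spread among the 4 small intestinal libraries and assume that it varies as they do, and the Cyp26b1 level in its LEC-like cells rests on 2 UMIs. The LEC-like cells of the cecum and large intestine, 230 and 260 in number, had Lyve1 at 3996 and 3815 CPM against 2333 to 2576 CPM in the small intestine. Prox1 was at 1003 and 946 against 1042 to 1211 CPM. Both genes are among the markers by which these cells were picked, so their levels are no separate evidence of what the cells are.

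Telocyte-like and subepithelial fibroblast-like cells also differed in their large bowel effects, in a contrast likewise chosen after the levels were seen. Both classes lay mostly in other graph clusters in the large bowel than in the small intestine. Effects of region and differences between kinds of cell therefore cannot be told apart here. The effect on Rbp4 was smaller in telocyte-like cells by -6.16 ± 0.31 (adjusted p = 5.18e-06), which already held the gene in the small intestine. The effects on Aldh1a3 and Aldh1a1 were lower in telocyte-like cells by -2.40 ± 0.30 and -1.60 ± 0.29, and those on Aldh1a2 and Rdh10 higher by 1.92 ± 0.25 and 1.45 ± 0.25. For Lrat the difference of 2.03 ± 1.08 was not called (adjusted p = 0.46), and Lrat was at 1.59 and 0.469 CPM in the telocyte-like cells of the cecum and large intestine, against 27.5 to 202 CPM in those of the small intestine.

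The other genes of the pathway were taken as 53 genes in lists by function. Between LEC-like and fibroblast-like cells 38 were tested, of which 15 were higher and 16 lower, with a median log2 difference of -0.21 against -0.05 over all genes, of which 31.7% were higher and 36.0% lower. Rbp7, an intracellular retinol-binding protein of endothelium and fat, was higher by 7.21 ± 0.52 and Rarb, the retinoic acid receptor that is itself induced by its ligand, by 2.73 ± 0.47. Of the 9 genes tested that are known to respond to retinoic acid, Rarb among them, 3 were higher and 4 lower. Rarres2 and Meis1 were among the lower, with log2 differences of -4.90 ± 0.13 and -3.52 ± 0.14. Adh1, a retinol-oxidising alcohol dehydrogenase, was lower, with a log2 difference of -4.78 ± 0.21. Between pericyte-like and fibroblast-like cells 7 of 35 were higher and 12 lower (14.0% and 21.8% of all genes), with a median of -0.28 against -0.18, and Rdh5, a retinol dehydrogenase, was higher by 2.19 ± 0.20.

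Subepithelial fibroblast-like cells had 10 of 30 pathway genes higher and 11 lower than trophocyte-like cells (median -0.10 against -0.02, with 30.6% of all genes higher and 34.9% lower). Rarb was higher by 3.36 ± 0.10, at 211 ± 55.3 against 16.4 ± 5.71 CPM (n = 4), while of the 8 genes tested that are known to respond to retinoic acid 2 were higher and 4 lower. Adh1 was lower, with a log2 difference of -5.27 ± 0.19, at 3.13 ± 1.70 against 88.4 ± 19.5 CPM. Telocyte-like cells had 3 of 28 higher and 8 lower than subepithelial fibroblast-like cells (median -0.09 against -0.03, with 11.2% of all genes higher and 10.6% lower), among them Bco1, which cleaves beta-carotene to retinal, higher by 3.48 ± 0.54, and Rarb, lower with a log2 difference of -2.56 ± 0.15. Of the 8 genes tested there that are known to respond to retinoic acid, 4 were lower and 1, Rarres1, was higher, by 6.66 ± 0.38. Universal fibroblast-like cells had 5 of 29 higher and 8 lower than trophocyte-like cells (median -0.08 against -0.01, with 15.9% of all genes higher and 15.1% lower).

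Between distal and proximal libraries 0 of 35 pathway genes were called by edgeR in trophocyte-like cells, 0 of 30 in subepithelial fibroblast-like cells and 0 of 33 in LEC-like cells. At an unadjusted p under 0.05 there were 6, 2 and 5, where 984 of 16162, 473 of 14561 and 597 of 15551 genes were. In the large bowel 11 of 41 were higher and 4 lower in fibroblast-like cells (median 0.31 against -0.01, where 16.1% of all genes were higher and 14.5% lower), and 14 of 33 higher and 6 lower in subepithelial fibroblast-like cells (median 0.50 against 0.02, with 22.6% of all genes higher and 19.2% lower). By list in subepithelial fibroblast-like cells, 6 of 10 retinol and retinal oxidoreductases were higher and 0 lower, 2 of 5 ester genes higher and 0 lower, 3 of 6 receptors higher and 2 lower, 0 of 2 transport and binding genes higher and 1 lower, and 2 of 9 genes known to respond to retinoic acid higher and 4 lower. 1 of 1 other dehydrogenase was higher and 0 of 1 carotenoid cleavage gene was called. Differences between lists were not tested. In the same cells Rarb was lower, with a log2 difference of -2.02 ± 0.49 and Rxra, a partner of the RARs, by -1.58 ± 0.22. Aldh1b1, a mitochondrial aldehyde dehydrogenase, was higher by 1.71 ± 0.41, Rarres1 by 4.56 ± 0.76, and Rarg by 1.18 ± 0.23.

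The pattern of 8 members over the class means of 15 classes was compared with that of 15826 genes by Pearson's r of log2(CPM + 1), given as a description since the classes share libraries. Stra6, below 5 CPM in every class compared, was left out. Cyp26b1 was most like Kdr (r = 0.975), Cdh5 (0.971) and Ushbp1 (0.97), and Kdr and Cdh5 code for an endothelial growth factor receptor and an endothelial junction protein. Lrat was most like Rbm46os (0.976), which overlaps it, then Cdh11 (0.962) and Msc (0.96). Rdh10 was most like 9130015L21Rik (0.971), Foxf2 (0.949) and 1700018A04Rik (0.945). Aldh1a1 was most like Ccdc8 (0.968), Dok5 (0.957) and Pcdh9 (0.957), Aldh1a2 like Gm19610 (0.955), Gm15222 (0.952) and Ccbe1 (0.948), and Aldh1a3 like Gria4 (0.946), Gm5577 (0.936) and Prr16 (0.93). Rbp4 was most like Gm47271 (0.921), with 9530077C14Rik also among its nearest 3 (0.897), and Dhrs3 was most like Srgap2 (0.92), BC005537 (0.882) and Gm14636 (0.866). Among the members themselves, Aldh1a2, Aldh1a3 and Lrat were the most alike (r = 0.896 to 0.914), and Cyp26b1 ran with Dhrs3 (0.581) and against the other members (-0.458 to -0.299).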

How the data were processed

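The deposited files held raw UMI counts per gene and barcode for all barcodes of 6 10x 3′ libraries, which the authors made with Cell Ranger (8.1.0 in the submitters' processing notes, 8.0.1 in the file headers) on mm39 with tdTomato added. Every value here was computed from these counts. Cells with 1000 to 7500 genes, 2500 to 40000 UMIs and at most 10% mitochondrial UMIs were kept (102534), and 8622 predicted doublets were removed. Hashtag antibodies were not used to assign animals. Cells were classed by per-cell scores on marker lists, and graph clusters built without the retinoid genes (scanpy 1.11.5) were an alternative. UMIs were summed per library and class with at least 20 cells and tested with edgeR 4.0.16 (R 4.3.3; quasi-likelihood, TMM, filterByExpr with a minimum count of 10), with library as a block between classes and none between regions, and Benjamini-Hochberg adjustment over all genes at 0.05. Alternatives were limma-voom 3.58.1, DESeq2 1.42.0, no filter, subtraction of 10% of each sum as free RNA, doublets kept, graph clusters, a stricter gate, other blocks and leaving out each library. The models were tested on simulated data. The spread between libraries does not separate animals from technical error. Members are named in each comparison in which their counts sufficed for a test, and of other retinoid genes those with the largest called change per list and direction were eligible. The members, lists and comparisons were chosen with earlier results of these data known, and the gate thresholds were set after marker levels were seen. Some genes that these rules select are not reported here.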

Additional observations from a re-analysis of the deposited data

Results flagged for a closer look

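Stra6 had 1 small intestinal library far from the other three in the subepithelial fibroblast-like class (0.0967 CPM) and in the telocyte-like class (2.77 CPM), each value resting on 1 UMI. 53 groups of 4 libraries were examined in this way, and chance marks about 1 group in 20.

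The difference between large bowel and small intestine was not the same in each class. Between LEC-like and fibroblast-like cells it differed by -7.65 on the log2 scale for Cyp26b1, by -2.43 for Dhrs3 and by 5.16 for Lrat (edgeR interaction, adjusted p = 0.0419), the last with LEC-like cells at 3.56 to 7.94 CPM in the small intestine and below 1 CPM in the large bowel. The LEC-like levels of Lrat and the fibroblast-like levels of Cyp26b1 in the small intestine are a few percent of free RNA. The part of free RNA in these differences was not tested. Between LEC-like and blood endothelial-like cells of the large intestine it differed by -8.14 for Cyp26b1 and by -1.06 for Dhrs3, with 1 library as the large intestine arm, so that the spread comes from the small intestinal libraries. Between telocyte-like and subepithelial fibroblast-like cells it differed by -1.60 for Aldh1a1, 1.92 for Aldh1a2, -2.40 for Aldh1a3, -6.16 for Rbp4 and 1.45 for Rdh10. Both of these classes lay mostly in other graph clusters in the large bowel than in the small intestine.

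Members also stood at over 1.5 times the free RNA level, in each library with enough cells, in blood endothelial-like cells, whose use in a test was limited to the interaction above, and in glia-like cells, which entered no test. Cyp26b1 averaged 394 CPM in blood endothelial-like cells, and in glia-like cells Aldh1a1 averaged 627 CPM and Dhrs3 191 CPM.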

How the results depend on the processing

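Of 1012 member values under an alternative, 939 kept their direction and their side of the threshold, 32 lost the call, 7 gained it and 34 changed direction, and the cause of none of these changes was tested. Between classes, a stricter gate left 1357 genes called between telocyte-like and subepithelial fibroblast-like cells, and fitting without the library block left 3 members and 2232 genes between universal fibroblast-like and trophocyte-like cells. Cyp26b1 turned between telocyte-like and subepithelial fibroblast-like cells to 0.042 with limma-voom and 1.65 with graph clusters, and between pericyte-like and fibroblast-like cells ran from -0.0047 (without the large intestine) to 1.14 over the libraries left out. Graph clusters turned Aldh1a3 to 0.83 and Rbp4 to 1.23 between universal fibroblast-like and trophocyte-like cells.

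Distal against proximal trophocyte-like cells gave 2 called members with DESeq2, 2 without the filter and 0 with doublets kept, and 0 (without either proximal library) to 2 (without distal 2) over the libraries left out. The genes called there were 34 with limma-voom, 186 with DESeq2, 481 without the filter, 72 after free RNA subtraction, 4 with doublets kept, 30 with graph clusters, 35 with the stricter gate and 48 (without distal 2) to 89 (without proximal 2) with a library left out. In subepithelial fibroblast-like cells they were 2, 43, 229, 0, 3, 0 and 4 in the same order, and 0 (without distal 2) to 179 (without proximal 1). In LEC-like cells they were 33 with DESeq2, 177 without the filter and 0 to 93 (without proximal 1) with a library left out, and the members called ran from 0 to 1.

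Same-numbered libraries deviated together (r = 0.30, 0.32 and 0.19 across genes in trophocyte-like, subepithelial fibroblast-like and LEC-like cells), but only 2 pairs exist and the labels do not pair them. With the replicate block, 2, 0 and 1 members and 595, 271 and 207 genes were called, and Cyp26b1 in trophocyte-like cells was at -0.19.

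Some uncalled distal to proximal differences changed sign. In trophocyte-like cells Cyp26b1 was at -0.77 with limma-voom, and over the libraries left out Cyp26b1 ran from -1.88 to 1.08, Aldh1a1 from -0.25 to 0.76 and Rdh10 from -0.11 to 0.46. In subepithelial fibroblast-like cells Aldh1a1 was at 0.044 with doublets kept and 0.0021 with the stricter gate, Rdh10 was at 0.020 with graph clusters, and over the libraries left out Aldh1a1 ran from -0.070 to 0.034, Rdh10 from -0.19 to 0.015 and Cyp26b1 from -2.80 to 1.44. In LEC-like cells Aldh1a2 was at -0.022 with limma-voom, -0.27 with doublets kept and -0.034 with graph clusters, Rdh10 at -0.15 with doublets kept and Cyp26b1 at 0.010 after free RNA subtraction, and over the libraries left out Aldh1a2 ran from -0.12 to 0.25, Aldh1a3 from -0.22 to 0.011, Rdh10 from -0.27 to 0.26 and Cyp26b1 from -0.45 to 0.33.

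For large bowel against small intestine, leaving out a library gave 3267 (without proximal 1) to 6717 genes in fibroblast-like cells, with 3392 without proximal 2 and 3814 without the cecum, and 3415 (without the cecum) to 6813 in subepithelial fibroblast-like cells. Replicate 1 of each small intestinal region alone gave 1689 and 3212 genes, Rdh10 at 0.020 and Cyp26b1 at 0.14 in fibroblast-like cells. Free RNA subtraction put Cyp26b1 there at 11.51, since the small intestinal sums became 0. Graph clusters gave no value for subepithelial fibroblast-like cells, since no cluster of that name held cells of the large bowel. Depth limits the members with few UMIs, Stra6 in each class and Cyp26b1 and Lrat in the large bowel, for which an absence cannot be told from a low level.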
